A study of Mus musculus with 6 samples.

Results

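The TNF superfamily genes examined here are 18 ligands and 22 receptors, 40 of the 39017 gene identifiers in the table, taken as a named list of the family and matched by symbol. They were measured by RNA sequencing in adherent cells grown from crushed long bones of wild-type BALB/c mice and labelled as bone marrow macrophages positive for F4/80 and CD169. There were 3 libraries from old mice, more than 78 weeks of age, and 3 from young mice, 3 weeks of age, each made from 10000 cells. Both ages share the strain, the genotype and a serum-containing medium, for which the series' design text names no macrophage growth factor. Nothing in the labels ties the libraries of an age to separate mice. The p-values therefore reflect only how far these libraries differ among themselves, which may be technical.

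TNF family ligands are mostly type II membrane proteins that act as trimers on the cell surface or after release by a protease. Receptors with a death domain can recruit caspases, and receptors with or without one can activate NF-kB and MAP kinases through TRAF adaptors. Decoy receptors bind ligand without signalling. In bone marrow the family is known for setting osteoclast formation through RANKL, RANK and osteoprotegerin, for the survival of B-lineage and plasma cells through BAFF and APRIL, and for inflammatory signalling through TNF.

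Total counts were 34391206 to 43367734 per library. On the second principal component (16.1% of the variance) young replicate 3 was set off from the other 5 libraries. The cultures held more than macrophages. The summed level of 12 leukocyte and macrophage markers was 2487 to 2760 CPM (counts scaled to library size, per 1e+06) in old and 3631 to 4050 CPM in young libraries, and 8 of the 12 fell and 0 rose. That of 10 stromal markers was 23525 to 29633 CPM in old and 30818 to 68480 CPM in young libraries, the highest being young replicate 3, with 2 members higher and 2 lower. B-lineage markers summed to 167 to 248 CPM in old and 58.3 to 65.3 CPM in young libraries (6 of 7 tested rose), and osteoclast markers to 499.5 to 586 CPM in old and 228 to 263 CPM in young (2 of 7 tested rose). Of 10 osteoblast and osteocyte markers 4 fell and 1 rose, with a sum of 7162 to 8781 CPM in old and 6409 to 8034 CPM in young libraries. Spp1 carried most of that sum, and the other 9 summed to 756 to 992 CPM in old and 1636 to 3448 CPM in young libraries. No marker of these lists was at 0 in all 6 libraries. Fewer cells of a type and less RNA per cell cannot be told apart in such bulk libraries, and what part these markers have in the changes below was not tested.

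The log2 fold changes (old minus young) here are for the first 2 genes of each marker list. These need not stand for the rest. The values were -0.91 for Csf1r and -0.36 for Ptprc among leukocytes, and -4.46 for Ibsp and -1.49 for Bglap among osteoblasts. Among stromal cells they were -1.002 for Col1a1 and -0.85 for Col1a2, and among osteoclasts 1.16 for Acp5 and 0.50 for Ctsk. Among B cells they were 2.86 for Cd79a and 0.93 for Cd79b. Of these 10 genes Csf1r, Ibsp, Acp5, Cd79a and Cd79b passed the threshold, Cd79b only with all libraries or without young replicate 3 (adjusted p otherwise up to 0.125). The remaining lists were T and NK cells (0.62 for Cd3e, -0.20 for Cd3g, 0 of 6 tested passed, summed level 3.33 to 9.25 CPM in old and 5.35 to 15.5 CPM in young), mast cells and basophils (4.03 for Fcer1a, 0.90 for Kit, 4 of 7 rose, 51.3 to 86.1 CPM in old and 18.5 to 21.9 CPM in young), dendritic cells (0.42 for Flt3, 0.12 for Zbtb46, 2 of 5 tested rose, 28.1 to 35.7 CPM in old and 11.1 to 13.5 CPM in young), endothelium (-0.53 for Pecam1, -1.24 for Cdh5, 0 of 6 passed, 23.9 to 33.8 CPM in old and 17.6 to 36.6 CPM in young) and megakaryocytes (2.54 for Itga2b, 4.07 for Gp1ba, 4 of 6 rose, 227 to 308 CPM in old and 47.0 to 80.4 CPM in young). Leaving out old replicate 1 or 2, or young replicate 1 or 3, ended the calls of Gp1ba (adjusted p as high as 0.0649) and Itga2b (as high as 0.14). Further genes of some lists differed from the 2 given. Among stromal markers Cxcl12 (1.36) and Pdgfra (1.23) were called higher, and Lum (-3.14) and Lepr (-0.73) lower. The dendritic cell markers that rose were Itgax (2.40) and Ccr7 (2.02). Of the 6 endothelial markers 2, Vwf (2.48) and Emcn (0.88), had positive values, without passing.

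Receptors were far more abundant than ligands. By RPKM, CPM per kilobase of merged exon length, 11 of the 12 most abundant members were receptors and the remaining one was the ligand Tnfsf12. Tnfrsf11b, which encodes the secreted decoy receptor osteoprotegerin, had a mean of 84.4 RPKM in old and 110.3 RPKM in young libraries. The main TNF receptor Tnfrsf1a had 95.1 RPKM in old and 71.3 RPKM in young, and the leukocyte TNF receptor Tnfrsf1b 68.4 RPKM in old and 66.3 RPKM in young. Tnfrsf12a, the receptor of TWEAK, Ltbr, the lymphotoxin beta receptor, and Tnfrsf21, a death domain receptor, followed among receptors. Of the ligands Tnfsf12, which encodes TWEAK, stood first at 33.1 RPKM in old and 29.9 RPKM in young, ahead of Tnfsf11 at 5.54 RPKM in old and 2.14 RPKM in young. Tnfsf18 had 0 counts in all 6 libraries, which allows up to 0.0892 CPM at 3 counts in the library with the smallest TMM-scaled size, counting error only.

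**Figure D1:**
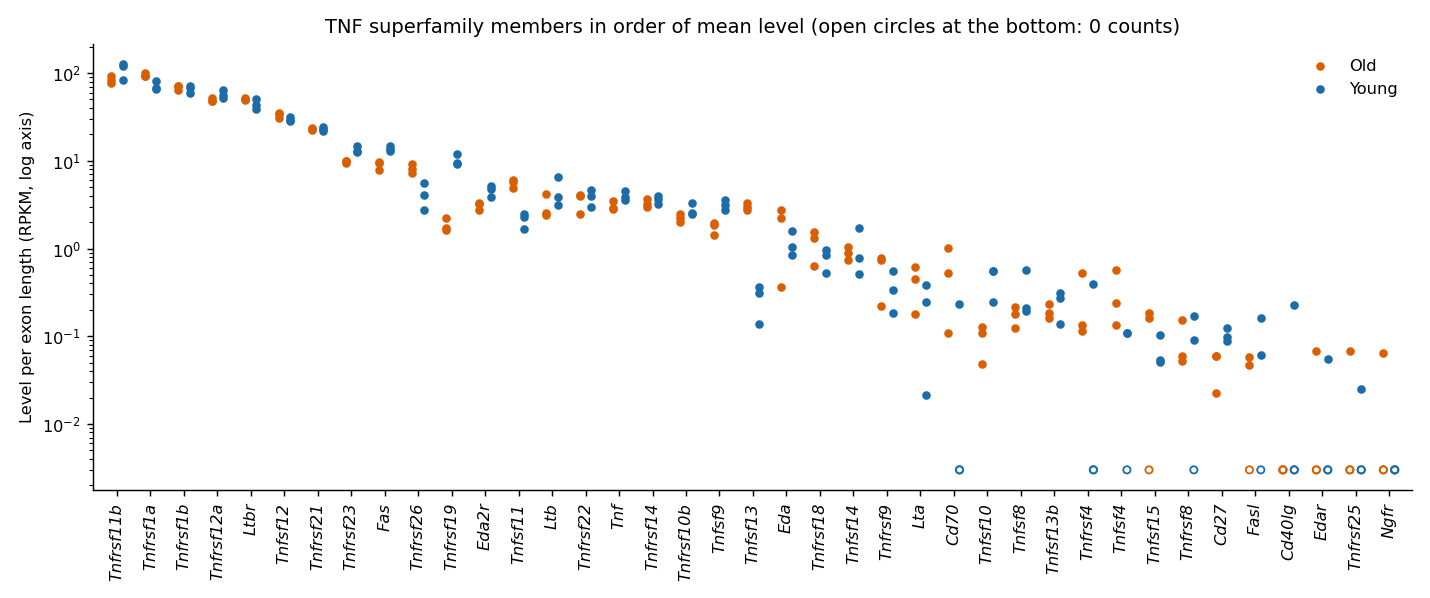
Level of each of the 39 detected members per exon length (RPKM, log axis), with each library as a point, old left of young within a gene, and libraries with 0 counts as open circles at the bottom. The receptors Tnfrsf11b, Tnfrsf1a, Tnfrsf1b, Tnfrsf12a and Ltbr lead, and the ages are set apart at, among others, Tnfrsf19, Tnfsf10, Tnfsf11 and Tnfsf13.

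Of the 40 members, 30 had enough counts to be tested and 10 did not. At an adjusted p of 0.05, 4 members rose in old libraries (Tnfsf13, Tnfsf11, Tnfrsf26 and Tnfrsf1a) and 6 fell (Tnfrsf19, Tnfsf10, Tnfsf9, Fas, Eda2r and Tnfrsf23), which is 33.3% of those tested. Over all 15567 genes tested, 10.5% were called, 5.84% higher and 4.70% lower. The members were chosen with earlier results of these data known, so these shares are set side by side without a test. They do not cover the whole family, since further receptors are given with the pathway genes below. Of the 13 tested ligands 2 rose and 2 fell, and of the 17 tested receptors 2 rose and 4 fell. The median log2 fold change was -0.14 over the tested members and -0.01 over all genes. For 12 of the 30 members (40%) every library of an age lay on its own side of the other age, beside 30.2% of all genes.

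Only Tnfsf13, Tnfsf11 and Tnfrsf19 were called in all 13 alternative fits tried, and the other 7 lost their call in some. A further fit, given below, summed Tnfsf13 with the models it overlaps or adjoins. That sum did not pass. Without old replicate 1, 2 or 3 the numbers were 2 higher and 1 lower each time. They were 2 and 2 without young replicate 1, 3 and 3 without young replicate 2, and 5 and 6 without young replicate 3. None of the 10 changed sign in these fits.

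**Figure D2:**
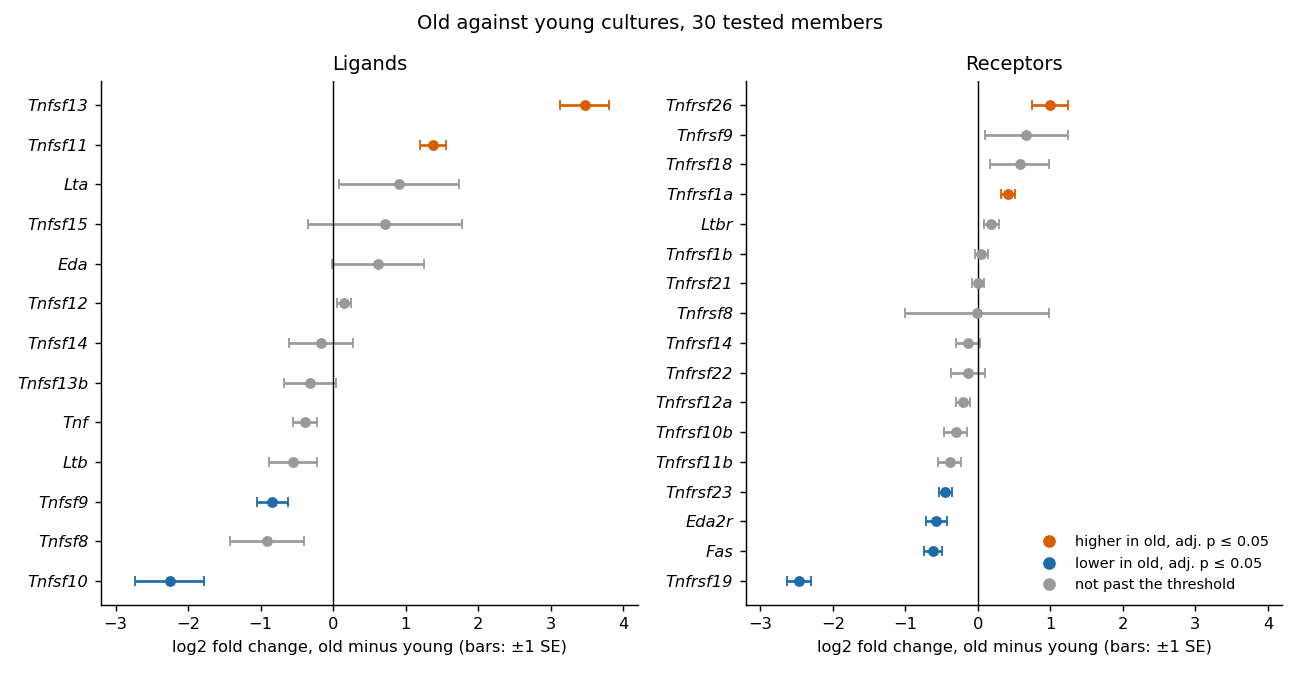
log2 fold change, old minus young, of the 13 tested ligands and 17 tested receptors, with bars of 1 SE. Orange points are members past an adjusted p of 0.05 and higher in old libraries, blue points those past it and lower, and grey points those not past it. Tnfsf13 lies furthest to the right at 3.46 and Tnfrsf19 furthest to the left at -2.46.

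**Figure D3:**
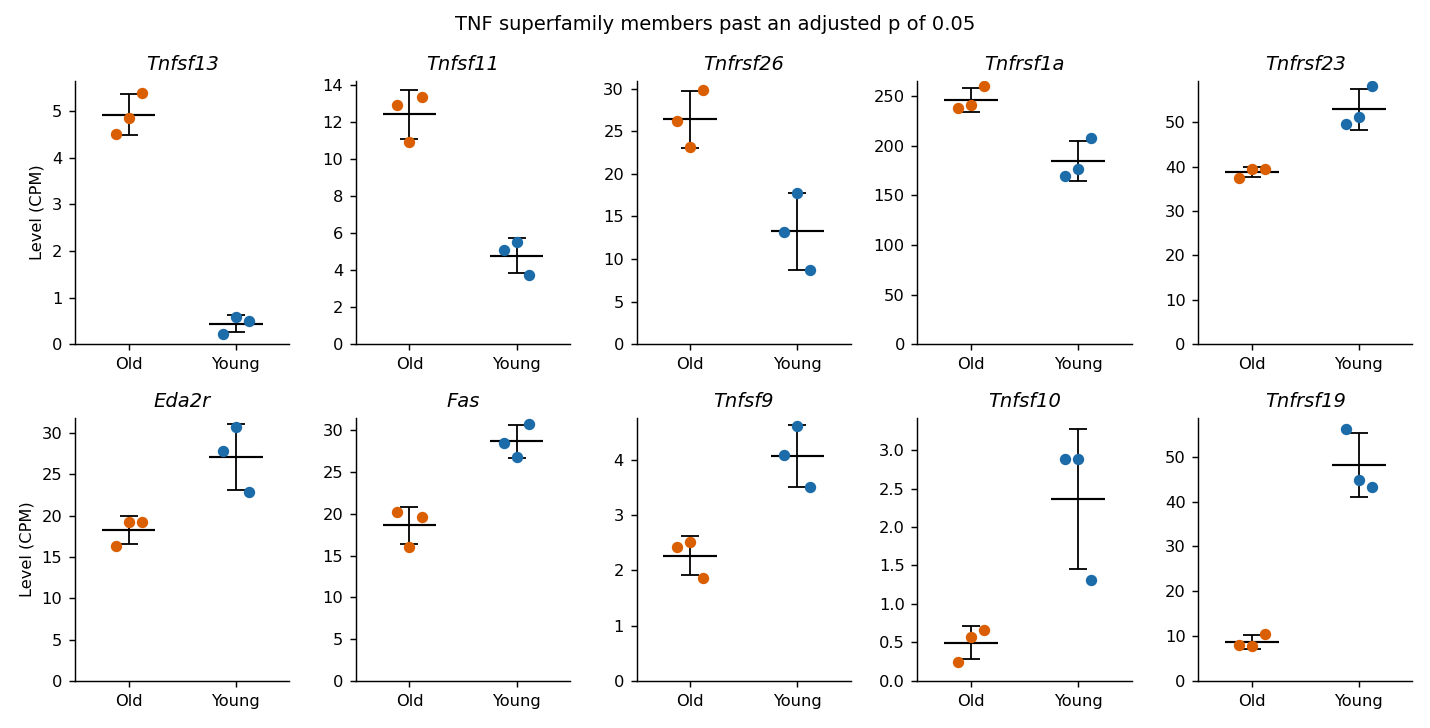
CPM of the 10 members past the threshold, each library as a point, with the mean and SD (n = 3 per age) in black and axes that start at 0. The points of the ages do not overlap in any of the 10 panels, whose members were picked by the test on these same values. Over all genes tested, 30.2% had no overlap. Relative to each panel's own axis, the gaps are widest at Tnfsf13 and Tnfrsf19.

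Tnfsf13 rose most. It encodes APRIL, a ligand that supports the survival of plasma cells through its receptors TACI and BCMA. It had 198, 187 and 194 counts in old libraries and 8, 21 and 17 in young ones, or 4.92 ± 0.438 CPM in old and 0.443 ± 0.191 CPM in young (SD, n = 3 each). All 3 old libraries lay close together and far above the young ones. On the log2 scale the change was 3.46, SE 0.34 (adjusted p = 0.00159), an 11.04-fold difference, and it lay between 3.15 and 3.74 on leaving out any library. Its neighbour Tnfsf12 had 51.9, 46.2 and 52.5 CPM in old and 43.98, 43.4 and 48.3 CPM in young libraries, which overlap (log2 fold change 0.15, SE 0.09, adjusted p = 0.395).

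The gene models at this locus overlap. Tnfsf13 (ENSMUSG00000089669) lies on chromosome 11 at 69682846 to 69685784 of mm10, Tnfsf12 (ENSMUSG00000097328) at 69686250 to 69695849, both on the minus strand. The read-through model Tnfsfm13 (69682577 to 69696098) joins them into an mRNA known in mouse and human to encode the fusion ligand TWE-PRIL. Of Tnfsf13's exon length 60.0% is shared with another model, and of Tnfsf12's 48.3%. The sequences below are shown because reads that cross or leave these exon ends are among those that tell the models apart. They are 60 coding bases around the exon ends in GENCODE transcripts, 5′ to 3′ on the mRNA, with capitals for bases that belong to Tnfsfm13, whose junction in this transcript joins position 69686957 to 69685130:
Tnfsfm13-202: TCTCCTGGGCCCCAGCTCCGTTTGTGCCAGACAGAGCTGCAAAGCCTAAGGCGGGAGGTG
Tnfsf12-202: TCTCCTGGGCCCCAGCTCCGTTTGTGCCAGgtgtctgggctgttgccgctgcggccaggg
Tnfsf13-201: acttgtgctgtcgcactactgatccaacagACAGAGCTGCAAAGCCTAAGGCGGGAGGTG
The first 30 bases are the same in Tnfsf12 and the read-through model, and the last 30 in Tnfsf13 and the read-through model.

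Tnfsfm13 pointed the other way from Tnfsf13 without passing the threshold. It had 39, 37 and 39 counts in old and 90, 69 and 39 in young libraries (log2 fold change -0.95, SE 0.34, adjusted p = 0.143), with young replicate 3 just above the old libraries after scaling. Without young replicate 3 it was called lower (log2 fold change -1.21, adjusted p = 0.0352). How the counting tool assigned reads in shared exons is not given in the sources used here, so the split between the models is uncertain. With the 3 models summed into a single unit, in which Tnfsf12 has most of the reads, the log2 fold change came to 0.24, SE 0.09 (adjusted p = 0.151). The antisense model Tnfsf13os, which covers 13.5% of Tnfsf13's exon length, had 93, 51 and 80 counts in old and 0, 12 and 10 in young libraries (log2 fold change 3.14, SE 0.79, adjusted p = 0.0491). Removing any library other than young replicate 1 ended that call (adjusted p 0.0641 to 0.165). The library kit does not mark the strand, so reads of Tnfsf13 and Tnfsf13os cannot be told apart where they overlap.

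**Figure D4:**
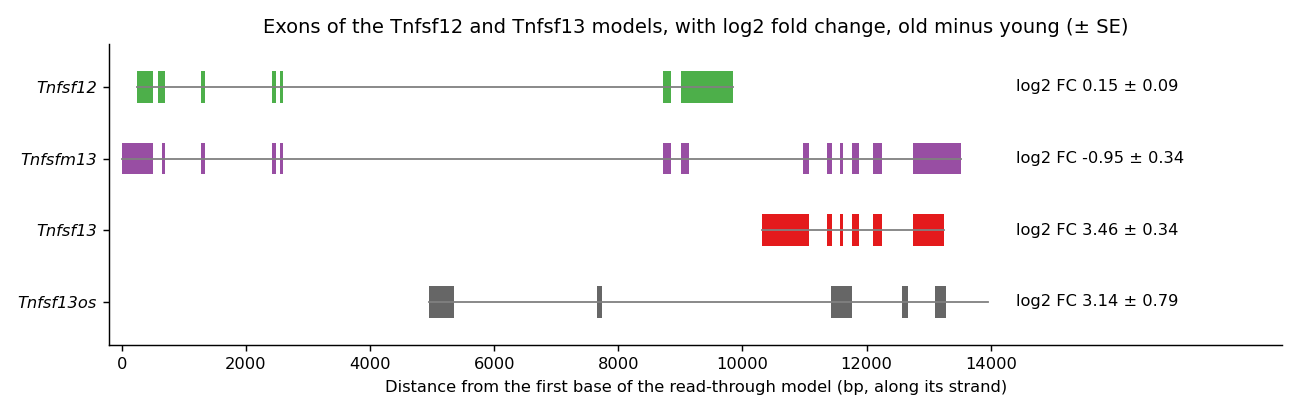
Exons (boxes, all transcripts of a model drawn together) of Tnfsf12, the read-through model Tnfsfm13, Tnfsf13 and the antisense model Tnfsf13os, by distance in bp from the first base of Tnfsfm13 along its strand, with each model's log2 fold change, old minus young, ± SE. The read-through model shares exons with both ligands, and Tnfsf13 and Tnfsf13os have the changes above 3.

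APRIL's relatives and receptors differed. Tnfsf13b, which encodes BAFF, the B-cell survival factor, had 56, 43 and 57 counts in old and 74, 67 and 32 in young libraries and did not pass (log2 fold change -0.32, SE 0.36, adjusted p = 0.667). The receptors that bind either ligand or both are not among the 40 members. Of these, Tnfrsf13b (TACI) had 18.3, 20.7 and 19.4 CPM in old and 29.1, 31.2 and 23.2 CPM in young libraries. It was just short of the threshold (log2 fold change -0.52, SE 0.14, adjusted p = 0.0545). Tnfrsf13c, the BAFF receptor of B cells, had 61, 76 and 99 counts in old and 4, 7 and 12 in young (log2 fold change 3.18, SE 0.49, adjusted p = 0.00855, called in every fit that left out a library). In the same libraries 6 of the 7 tested B-lineage markers rose, as given above. Tnfrsf17, which encodes BCMA, had 4, 0 and 5 counts in old and 6, 6 and 6 in young libraries, too few for the test. After scaling, its young libraries all lay above the old ones.

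Tnfsf11 encodes RANKL, which osteoblast-lineage cells make, among other cells, and which drives osteoclast formation through RANK. The gene (ENSMUSG00000022015) lies on chromosome 14 at 78277445 to 78308043. It had 12.9, 10.9 and 13.4 CPM in old and 5.08, 5.52 and 3.74 CPM in young libraries. Every old library had at least 10.9 CPM and no young library more than 5.52. The log2 fold change came to 1.37, SE 0.18 (adjusted p = 0.00495), or 2.59-fold, and lay between 1.23 and 1.49 on leaving out any library. Osteoprotegerin, the decoy that binds RANKL, ran at a far higher level. Tnfrsf11b had 261, 219 and 234 CPM in old and 355, 236 and 341 CPM in young libraries, where young replicate 2 lay within the old range (log2 fold change -0.39, SE 0.16, adjusted p = 0.198). Without young replicate 2 it was called lower (log2 fold change -0.55, adjusted p = 0.0312).

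The ratio of the pair separated the ages. Per 1000 Tnfrsf11b reads there were 49.5, 49.9 and 57.1 Tnfsf11 reads in old and 14.3, 23.3 and 10.99 in young libraries. On the log2 scale the ratio averaged -4.26 ± 0.12 in old and -6.02 ± 0.55 in young libraries (SD, n = 3 each), a difference of 1.75 (exact two-sided permutation test, p = 0.1, the smallest that 3 against 3 libraries allow). RANK itself, Tnfrsf11a, had 48.5, 48.8 and 35.6 CPM in old and 55.5, 59.0 and 56.35 CPM in young (log2 fold change -0.36, SE 0.13, adjusted p = 0.152). Of the 7 tested osteoclast markers, Acp5 and Atp6v0d2 rose (log2 fold changes 1.16 and 2.61) and 5 did not pass, among them Mmp9 and Ocstamp with values of -0.62 and -0.91. Of the 10 osteoblast and osteocyte markers, Spp1 rose (0.60) and Ibsp, Sp7, Runx2 and Dmp1 fell (-4.46, -1.03, -0.56 and -6.74).

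**Figure D5:**
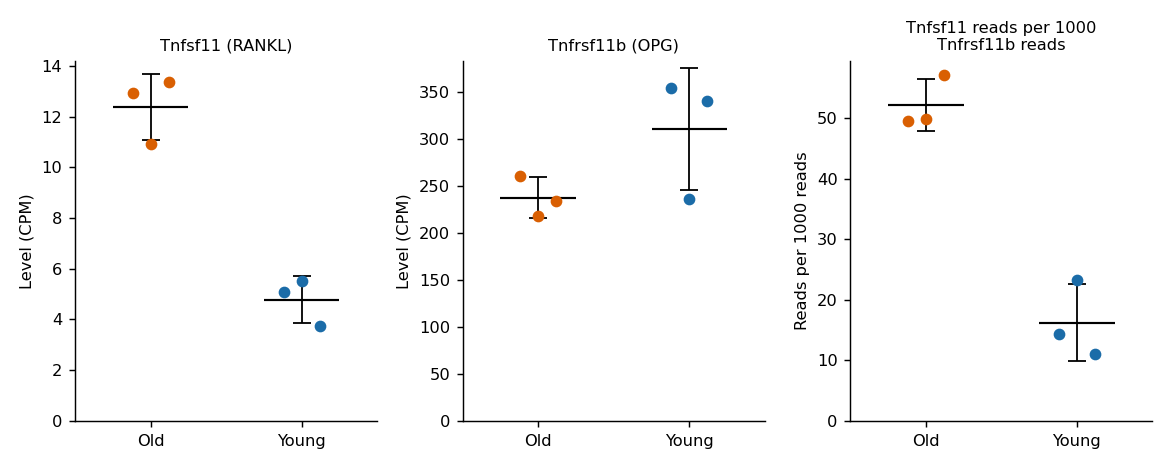
CPM of Tnfsf11 and of Tnfrsf11b, and Tnfsf11 reads per 1000 Tnfrsf11b reads, in each library (points), with mean and SD (n = 3 per age). The old libraries lie above the young ones for Tnfsf11 and for the ratio, at 49.5 to 57.1 against 10.99 to 23.3 reads, and overlap with them for Tnfrsf11b.

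Tnfrsf19 had the furthest fall of the family. It encodes TROY, a receptor without a known TNF family ligand that is studied in mouse in skin, the nervous system and stem cells of the intestine. The gene (ENSMUSG00000060548) lies on chromosome 14 at 60963875 to 61046490. It had 8.03, 7.69 and 10.5 CPM in old and 56.25, 44.9 and 43.3 CPM in young libraries, so that the lowest young library was more than any old one. The log2 fold change came to -2.46, SE 0.17 (adjusted p = 0.000492), 5.52-fold lower, and lay between -2.62 and -2.34 on leaving out any library. Osteoblast markers, 4 of 10 of which fell and 1 of which rose, and stromal markers, 2 of 10 of which fell and 2 of which rose, moved in the same libraries.

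The sequences upstream of Tnfsf11 and Tnfrsf19 are shown as those of the members, beside Tnfsf13, whose calls held in all 13 alternative fits. Each is the 250 bases before a RefSeq start of GRCm38.p6, minus strand, 5′ to 3′, chr14:78308044-78308293 for Tnfsf11 and chr14:61046856-61047105, the more upstream of its starts, for Tnfrsf19. Capitals mark matches on either strand to TATAAA or to GGGNNNNNCC, the outer letters of the NF-kB site, and no match of the one overlaps the other:
Tnfsf11: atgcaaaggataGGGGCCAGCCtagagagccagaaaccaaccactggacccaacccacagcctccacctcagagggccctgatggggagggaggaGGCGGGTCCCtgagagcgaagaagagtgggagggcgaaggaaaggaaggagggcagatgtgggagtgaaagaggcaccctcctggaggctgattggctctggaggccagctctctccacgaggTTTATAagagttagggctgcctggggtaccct
Tnfrsf19: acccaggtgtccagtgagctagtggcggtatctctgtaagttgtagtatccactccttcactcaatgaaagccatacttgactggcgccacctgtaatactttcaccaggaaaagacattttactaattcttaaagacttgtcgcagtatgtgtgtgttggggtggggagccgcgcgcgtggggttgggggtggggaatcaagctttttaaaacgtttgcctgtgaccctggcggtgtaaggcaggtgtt
The Tnfsf11 window holds 1 TATAAA and 2 GGGNNNNNCC matches and the Tnfrsf19 window 0 of each. Of all 32851 RefSeq windows of this length 12.4% hold TATAAA and 45.8% hold GGGNNNNNCC. Of the 31 members with a window, 6 and 22 do in at least 1 of their windows.

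The death ligand gene Tnfsf10 and the death receptor gene Fas fell, while Tnfrsf1a, whose product also has a death domain, rose and is described with the TNF genes. Tnfsf10 encodes TRAIL, which triggers apoptosis through its death receptor, and lies on chromosome 3 at 27317028 to 27342427. It had 11, 22 and 24 counts in old and 101, 102 and 44 in young libraries, or 0.496 ± 0.218 CPM in old and 2.36 ± 0.910 CPM in young (SD, n = 3 each). Young replicate 3 was well under the other young libraries and still lay above every old one. The log2 fold change came to -2.25, SE 0.48 (adjusted p = 0.0275). It no longer passed when any library but young replicate 3 was left out (adjusted p 0.0609 to 0.0909). The TRAIL death receptor Tnfrsf10b did not pass, with 11.1, 13.5 and 12.3 CPM in old and 13.8, 13.6 and 18.2 CPM in young libraries (adjusted p = 0.3).

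Fas, the death receptor of Fas ligand, lies on chromosome 19 at 34290666 to 34327772. It had 20.2, 16.1 and 19.7 CPM in old and 28.5, 26.8 and 30.8 CPM in young libraries. Each young library exceeded each old one, with a log2 fold change of -0.62 and SE 0.12 (adjusted p = 0.022). Fas did not pass once any old library or young replicate 1 was removed (adjusted p 0.0589 to 0.0751). Its ligand gene Fasl had 4, 0 and 4 counts in old and 0, 11 and 4 in young libraries and was not tested.

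A cluster of receptor genes on chromosome 7, from 143607659 to 143685872, moved in different directions. Tnfrsf22 and Tnfrsf23 are known in mouse as decoy receptors for TRAIL, and Tnfrsf26 is their neighbour. Tnfrsf26 had 26.2, 23.2 and 29.9 CPM in old and 13.2, 17.8 and 8.77 CPM in young libraries, all old above all young (log2 fold change 1.00, SE 0.25, adjusted p = 0.0481). It did not pass once any old library or young replicate 1 was removed (adjusted p 0.104 to 0.148). Tnfrsf23 had 37.4, 39.5 and 39.4 CPM in old and 49.5, 51.1 and 58.2 CPM in young libraries, a narrow old range below the young one (log2 fold change -0.45, SE 0.09, adjusted p = 0.0254). It did not pass once any old library or young replicate 2 was removed (adjusted p 0.0583 to 0.115). Tnfrsf22 had 16.8, 17.1 and 10.6 CPM in old and 12.6, 16.95 and 19.5 CPM in young libraries, which overlap (log2 fold change -0.14, SE 0.24, adjusted p = 0.788). Of the runs of 100 bases in Tnfrsf22 transcripts 8.97% also occur in Tnfrsf23 transcripts, and 0 in Tnfrsf26, so the split of reads between Tnfrsf22 and Tnfrsf23 is uncertain while Tnfrsf26 shares no such run with either.

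Among the TNF and lymphotoxin genes only the receptor Tnfrsf1a passed. Tnfrsf1a, the TNF receptor of most cell types, lies on chromosome 6 at 125349362 to 125362484. It had 238, 241 and 261 CPM in old and 169, 177 and 208 CPM in young libraries, without overlap (log2 fold change 0.42, SE 0.10, adjusted p = 0.0382, 1.33-fold). Dropping any library except young replicate 3 ended the call (adjusted p 0.112 to 0.144). Tnfrsf1b had 271, 269 and 244 CPM in old and 260.2, 271 and 229 CPM in young libraries, which overlap almost entirely (log2 fold change 0.04, SE 0.09). The ligand gene Tnf, the main inflammatory cytokine of macrophages, had 5.68, 4.73 and 4.58 CPM in old and 5.88, 7.50 and 6.27 CPM in young libraries. These ranges did not overlap but lay close, and the test did not pass (log2 fold change -0.39, SE 0.17, adjusted p = 0.225).

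Lymphotoxin genes overlapped between ages. Ltb had 3.90, 3.64 and 6.41 CPM in old and 5.91, 9.85 and 4.73 CPM in young libraries (adjusted p = 0.387), and Lta had at most 31 counts in any library (adjusted p = 0.585). Their receptor gene Ltbr had 119, 115 and 121 CPM in old and 92.7, 101 and 118 CPM in young libraries, where young replicate 3 reached the old range (log2 fold change 0.18, SE 0.10, adjusted p = 0.346). Without young replicate 3 Ltbr was called higher (log2 fold change 0.29, adjusted p = 0.0341). LIGHT, encoded by Tnfsf14, and its receptor HVEM, encoded by Tnfrsf14, overlapped between ages as well, with log2 fold changes of -0.17 and -0.14. Without young replicate 2, whose 111 counts were the most, that of Tnfsf14 was 0.45.

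Tnfrsf12a, which encodes Fn14, had 91.6, 101 and 93.8 CPM in old and 100.4, 107 and 124 CPM in young libraries, which overlap slightly (log2 fold change -0.21, SE 0.10, adjusted p = 0.261). Tnfrsf21, which encodes the death domain receptor DR6, was nearly level, with 91.9, 93.9 and 98.1 CPM in old and 94.4, 88.7 and 101 CPM in young libraries (log2 fold change -0.001, SE 0.08).

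The ectodysplasin branch, known for skin appendages such as hair and teeth, showed a fall in 1 receptor. Eda2r, the X-linked receptor of the EDA-A2 form, lies at 97333840 to 97377216 of chromosome X. It had 16.3, 19.2 and 19.2 CPM in old and 27.8, 30.7 and 22.8 CPM in young libraries, with young replicate 3 the lowest of the young (log2 fold change -0.57, SE 0.14, adjusted p = 0.0458). Dropping any library except young replicate 3 took Eda2r past 0.05 (adjusted p 0.11 to 0.165). Its ligand gene Eda varied widely within the old libraries, at 2.51, 15.2 and 19.0 CPM, against 5.77, 7.19 and 10.9 CPM in young ones. Old replicate 1 lay below every young library and the other old ones above, and the test did not pass (log2 fold change 0.62, SE 0.64). Edar, the receptor of the EDA-A1 form, had 0, 0 and 9 counts in old and 7, 0 and 0 in young libraries.

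Among ligands and receptors known for co-stimulation between lymphocytes and antigen-presenting cells, Tnfsf9, which encodes 4-1BBL, passed. It lies on chromosome 17 at 57105325 to 57107757, and 14.9% of its exon length is shared with the antisense model Gm11110. It had 2.42, 2.52 and 1.86 CPM in old and 4.08, 4.61 and 3.51 CPM in young libraries, without overlap (log2 fold change -0.84, SE 0.21, adjusted p = 0.0492). With any library other than young replicate 3 removed, Tnfsf9 did not pass (adjusted p 0.112 to 0.141). Gm11110 itself had 0.388, 0.493 and 0.194 CPM in old and 0.799, 0.764 and 0.862 CPM in young libraries. The 4-1BB receptor gene Tnfrsf9 had 92, 23 and 72 counts in old and 32, 54 and 17 in young libraries and did not pass (adjusted p = 0.559).

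The other members of such pairs overlapped or were not tested. Tnfsf8 (CD30 ligand) and Tnfrsf8 (CD30) did not pass (adjusted p = 0.345 and 0.997), nor did Tnfrsf18, which encodes GITR (adjusted p = 0.466) and shares 27.2% of its exon length with the antisense model Gm16008, nor Tnfsf15, which encodes TL1A (adjusted p = 0.761). Among the members with too few counts for the test, Tnfsf4 (OX40 ligand) had 46, 17 and 9 counts in old and 7, 7 and 0 in young libraries, and its receptor gene Tnfrsf4 had 8, 6 and 26 in old and 0, 19 and 0 in young. Cd70 had 4, 17 and 31 counts in old and 0, 7 and 0 in young libraries, and its receptor gene Cd27 had 6, 2 and 5 in old and 10, 8 and 7 in young. The counts of Tnfsf4 and Cd27 did not overlap between ages after scaling, in opposite directions. Cd40lg, the T-cell ligand of CD40, had 10 counts in young replicate 2 and 0 elsewhere, and Ngfr, the neurotrophin receptor, 8 counts in old replicate 3 and 0 elsewhere. Tnfrsf25, which encodes DR3, had at most 6 counts in any library.

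Of 49 further genes of the pathway, 47 were tested, 4 rose and 2 fell, which is 12.8%, beside 10.5% of all genes. Traf3ip2, which encodes the adaptor Act1, rose without overlap, with 53.2, 57.7 and 53.9 CPM in old and 23.7, 25.9 and 32.2 CPM in young libraries (log2 fold change 1.01, SE 0.13, adjusted p = 0.00382). Traf5, an adaptor of several TRAF-binding receptors, had 17.1, 18.6 and 16.3 CPM in old and 10.8, 10.2 and 11.8 CPM in young (log2 fold change 0.67, SE 0.12, adjusted p = 0.0144). Birc2, which encodes the ubiquitin ligase cIAP1, had 40.9, 35.6 and 38.2 CPM in old and 27.2, 31.0 and 27.1 CPM in young (log2 fold change 0.43, adjusted p = 0.0414). The fourth that rose was Tnfrsf13c, given above. Ripk1, the kinase at the TNF receptor complex, had 58.4, 57.4 and 58.1 CPM in old and 81.8, 86.9 and 75.3 CPM in young (log2 fold change -0.49, SE 0.08, adjusted p = 0.012). Adam17, the protease that releases TNF from the membrane, had 132, 120 and 119 CPM in old and 148, 160 and 161 CPM in young (log2 fold change -0.34, adjusted p = 0.0379).

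The calls of Traf3ip2 and Tnfrsf13c held without any single library. Those of Birc2 and Adam17 held only without young replicate 3 (adjusted p otherwise up to 0.162 for each). Ripk1 did not pass once any old library was removed (adjusted p 0.0506 to 0.0619), nor Traf5 once old replicate 1 or 2 or young replicate 1 or 2 was (adjusted p 0.0502 to 0.0724). By list, 0 of 16 genes of the ubiquitin and kinase steps to NF-kB passed, 1 of 10 in death signalling, 3 of 11 tested adaptors and TRAFs, 1 of 5 tested further receptors and 1 of 5 sheddases and processing enzymes. The most abundant member per exon length of each list was Rbck1 (26.5 RPKM over the 6 libraries), Ripk3 (57.8 RPKM), Tradd (28.6 RPKM), Tnfrsf11a (8.46 RPKM) and Adam10 (32.8 RPKM) in that order, and none of these 5 passed.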

How the data were processed

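Per the labels' protocols, each library started from 10000 cells, whose cDNA was made and amplified with a SMART-Seq kit for small RNA inputs, and was read as pairs of 100 bp. Such a kit does not mark the strand. The values the authors deposited are whole-number counts per Ensembl gene, not normalized. Per the submitters' processing notes, the tools named, without their roles, are STAR 2.6.1a, HISAT2 2.1.0, Trim Galore 0.50, cutadapt 1.18, StringTie 1.3.4d, SAMtools 1.9 and Picard 2.18.15, and the build is mm10. Not given in the sources used here are the counting tool, annotation, strand setting and treatment of multi-mapped reads. Amplified reads are not independent molecules, so limits from a count of 0 cover counting error only.

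Age and replicate number come from each library's title, and 0 columns were left unused. Symbols, positions and exon lengths come from GENCODE mouse release M21 (37693 of 39017 identifiers matched), upstream sequences from RefSeq. The members and the gene lists were chosen with earlier results of these data known. The test used edgeR 4.0.16 in R 4.3.3: filterByExpr, TMM, and the robust quasi-likelihood test of age without a replicate block, Benjamini-Hochberg adjustment over 15567 genes, threshold 0.05. The SE is the absolute log2 fold change over the square root of F. CPM uses TMM-scaled library sizes. All 40 members are accounted for, those past the threshold and the 12 most abundant per exon length by library. Other pathway genes are named if past the threshold, most abundant in their list or the receptor of a member ligand. Marker lists are given by their first 2 genes, some further genes and the summed level. The ratio of Tnfsf11 to Tnfrsf11b used counts plus 0.5 and an exact permutation test in scipy 1.17.1. Alternatives were DESeq2 1.42.0 (its test and its size factors), upper-quartile factors, limma-voom (limma 3.58.1), no low-count filter, a stricter filter (50 counts or more in 3 libraries), a replicate block, and leaving out each library. The procedure was also run on simulated counts with 200 genes changed by known folds, and how many it recovered is not given here. In every pair of libraries of 1 age the counts differed beyond counting noise, which for amplified reads may be technical. The chi-square per degree of freedom was 113 and 119 in the pairs with young replicate 3 and 23.3 to 31.5 in the others.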

Additional observations from a re-analysis of the deposited data

How the results depend on the processing

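Of 385 member values recomputed under the alternatives, 324 kept direction and side of the threshold. Members called stayed at 4 higher and 4 to 6 lower under other scalings, tests and filters, and the scalings moved the median of all genes by at most 0.0053 (log2). Same-numbered old and young libraries correlated by 0.088, 0.034 and 0.09 in their deviations from the age means. Differently numbered ones correlated by -0.098 to 0.018. Values this weak cannot decide whether the numbers pair the libraries. With a replicate block there were 3 higher and 3 lower members (Tnfrsf26, Tnfsf10, Tnfsf9 and Eda2r lost) and 1 lower pathway gene, and 711 higher and 575 lower genes over all. Leaving out 1 library gave 2 to 5 higher and 1 to 6 lower members, 2 to 7 higher and 0 to 3 lower pathway genes, and 418 to 1459 higher and 294 to 1168 lower genes over all, against 909 and 731. The log2 difference of the Tnfsf11 to Tnfrsf11b ratio then lay between 1.51 and 2.05. The DESeq2 test called 1137 lower genes and 4 lower pathway genes. Summing Tnfsf12, Tnfsf13 and the read-through model gave a log2 fold change of 0.24 (adjusted p = 0.151), since Tnfsf12 holds most of those reads. Tnfsf9 and Eda2r also lost their calls with upper-quartile factors (adjusted p = 0.0514 and 0.0507), and Tnfsf9 without a filter (0.0597). For the others the cause was not tested.

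Genes that were not called changed sign near 0 or at low counts. Tnfrsf8 (main log2 fold change -0.01) had 0.005 with DESeq2, 0.93 with limma-voom, 0.002 without a filter and 0.19 with the replicate block, and -0.64 to 0.92 on leaving out a library. Tnfrsf21 (-0.001) had 0.005 with upper-quartile factors, 0.002 with the stricter filter, 0.0 with limma-voom and 0.0 with the replicate block, and -0.047 to 0.048 on leaving out a library. Tnfsf15 had -0.68 and Cd3g 0.084 with limma-voom. On leaving out a library the ranges were -0.022 to 0.095 for Tnfrsf1b, -0.30 to 0.05 for Tnfrsf22, -0.48 to 0.45 for Tnfsf14, -1.20 to 2.50 for Cd3e, -0.95 to 1.47 for Cd3g and -0.16 to 0.86 for Flt3. Members under about 1 CPM, and the 10 not tested, are limited by depth.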
